A study of Mus musculus with 4 samples.

Results

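Mitochondrial ribosomal proteins are the protein subunits of the ribosome that works inside mitochondria. They are encoded in the nucleus, made in the cytosol and imported. The genes described here were all those measured on the array whose symbol is Mrpl or Mrps followed by a number and, at most, a letter from a to c. Each was taken from probe sets annotated to that gene alone, and its value is the mean of its probe sets. The rule found 76 genes among 18193 measured, 47 with a large subunit symbol (Mrpl) and 29 with a small subunit symbol (Mrps), read by 156 probe sets. Mrpl30 and Mrpl53 were left out because every probe set naming them also named another gene.

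The mitochondrial ribosome makes only proteins encoded in mitochondrial DNA, which are core subunits of the respiratory chain and of ATP synthase. Its small subunit reads the messenger RNA, and its large subunit joins the amino acids and passes the new chain towards the inner membrane. Compared with its bacterial relatives it has less ribosomal RNA and more protein, so that members with a bacterial homologue stand beside others found in mitochondria alone. Skeletal muscle fibres are rich in mitochondria, while resting satellite cells, the stem cells of muscle, hold few.

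Satellite cells were isolated from hindlimb muscle of young C57BL/6J mice, 3 to 6 months old, and aged mice of the same strain, 20 to 25 months old. All were sorted by flow cytometry for syndecan-4, a surface proteoglycan of satellite cells, and the labels give no treatment or mutant allele for either age. Each age has 2 arrays, each holding RNA pooled from 6 to 8 mice per the sample text or 4 to 8 per the series text. The pools average the mice in them, so the spread between mice is not seen, and p-values measure only the spread between pools. Before labelling, the RNA went through linear amplification with T7 RNA polymerase in 2 rounds. The sex of the mice is not given in the labels. The values were taken as log2, and each probe set is centred on its median over the 4 arrays, so a value says how far a pool lies from that median. Differences between ages are kept, but levels are lost. No gene can be called present or absent, marker genes included, and no gene's level can be set against another's.

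Most mitochondrial ribosomal protein genes were lower in the aged pools, and no single gene passed the adjusted threshold. The difference, aged minus young, was below 0 for 63 of the 76 genes, while 46.2% of all genes were lower. The median over the 76 was -0.70 on the log2 scale, a 1.63-fold lower value, against a median of 0.05 over all genes. With limma and Benjamini-Hochberg adjustment over all genes tested, 0% of the 18193 genes passed an adjusted p of 0.05, while 1645 had an unadjusted p under 0.05. The smallest adjusted p among the 76 was 0.270, for Mrpl51. At an unadjusted limma p under 0.05, 17 of the 76 genes (22.4%) were lower, against 6.19% of all genes. None of the 76 was higher at that p, against 2.85% of all genes. In the same aged pools, all 29 measured markers of mature muscle fibres were lower (median -2.82), and their part in these differences was not tested. In a bulk sample, fewer cells of a type and less RNA per cell cannot be told apart.

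The large and small subunits gave similar summaries. In the large subunit 39 of 47 genes were lower, and the median difference was -0.72. At an unadjusted limma p under 0.05, 9 genes (19.1%) were lower, against 6.19% of all genes. In the small subunit 24 of 29 were lower, the median was -0.64 and the count at that p was 8 (27.6%). Both counts depended on single pools. Without young pool 1 they were 3 and 2, against 4.52% of all genes, and without young pool 2 they were 5 and 4, against 5.95%. Without aged pool 2 the small subunit count was 2, against 4.84%. As shares of the 47 and 29 genes, the counts without young pool 1 lie near the share over all genes. No test compared the subunits with each other, so no trait is given here as particular to one of them. Some symbols do not match the subunit in which the protein sits in mammalian ribosomes. Mrps30 and Mrps18a proteins lie in the large subunit, and the Mrps36 protein is now known as a part of the alpha-ketoglutarate dehydrogenase complex. With these genes placed by structure and Mrps36 left out, the medians were -0.68 and -0.66.

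**Figure D1:**
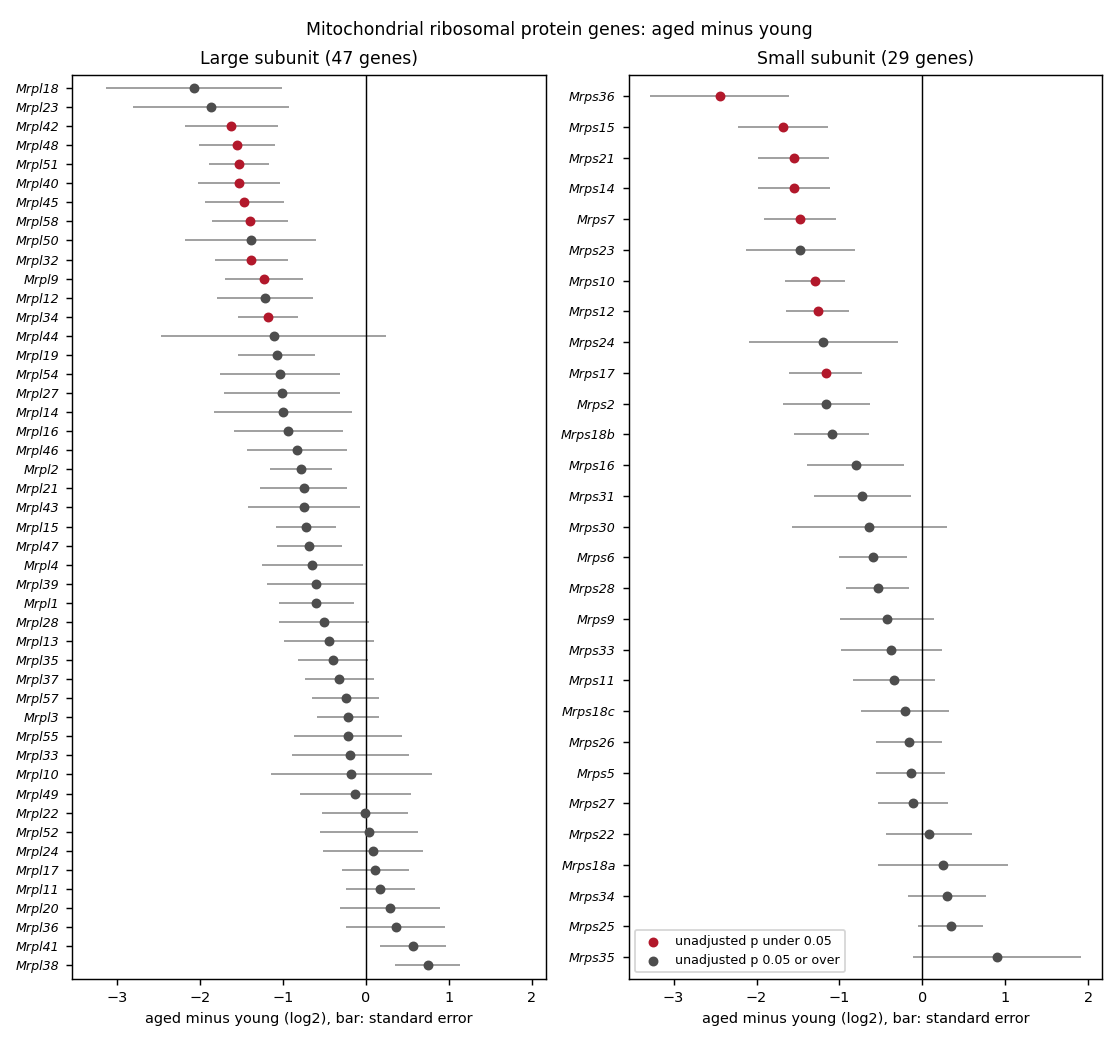
Difference between ages for each of the 76 genes, with the log2 difference (aged minus young) on the horizontal axis and 1 gene per line, large subunit symbols at left and small subunit symbols at right. Points are fitted differences, bars are limma standard errors (2 pools per age), and red marks an unadjusted p under 0.05. In all, 63 of 76 points lie left of 0, and all 17 red points do.

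Both aged pools lay below both young pools in 30 of the 76 genes, against 16.9% of all genes. The reverse, both aged pools above both young pools, held for 2 genes, Mrpl38 and Mrpl41, against 19.9% of all genes. With 2 pools against 2, the smallest two-sided p that an exact permutation test can give is 0.333, so groups that do not overlap cannot pass a threshold on their own. Differences by more than 1 on the log2 scale were seen in the lower direction for 30 of 76 genes, against 9.44% of all genes. No gene of the 76 was higher by more than 1, against 5.15% of all genes.

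Mrpl51, a large subunit protein without a bacterial homologue, had the smallest p of the 76 genes. Its value was 0.68 in young pool 1, 0.89 in young pool 2, -0.85 in aged pool 1 and -0.64 in aged pool 2. Both young pools were high, both aged pools were low, and the ages did not overlap. The difference was -1.53 ± 0.37 (SE, n = 2 pools per age), with an unadjusted limma p of 0.00680 and an adjusted p of 0.270. Its 3 probe sets differed among themselves. One differed by -3.85 and another by -1.02, while the remaining one differed by 0.28. The mean over probe sets therefore lay far from the most responsive of them.

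Mrpl34, the homologue of a short basic protein of the bacterial large subunit, showed a similarly clean separation in the mean of its 2 probe sets. It stood at 0.75 and 0.57 in the young pools and at -0.60 and -0.42 in the aged pools, a difference of -1.17 ± 0.36 (limma, adjusted p = 0.399). The spread within each age was small beside the gap between them. The probe sets of Mrpl34 differed by -2.11 and -0.23, so the separation came mostly from 1 of them. Mrpl32, whose protein is matured by the m-AAA protease of the inner membrane before it joins the ribosome, stood at 0.44 and 0.60 in the young pools. In the aged pools it stood at -0.44 and -1.28, a difference of -1.38 ± 0.44 (limma, adjusted p = 0.418). Both aged pools lay below the young pools, aged pool 2 the further. Mrpl42, found in mitochondria alone, stood at 0.66 and 0.25 in the young pools and at -0.48 and -1.86 in the aged pools, with a difference of -1.62 ± 0.56. The ages did not overlap, and aged pool 2 was the lowest. Mrpl58, a peptidyl-tRNA hydrolase built into the ribosome that can free stalled chains, stood at 0.46 and 0.79 in the young pools and at -1.24 and -0.30 in the aged pools. Its difference was -1.40 ± 0.46 (limma, adjusted p = 0.439), with aged pool 1 the lowest, and it rested on 1 probe set at -2.84, the other standing at 0.05. Mrpl9, a homologue of a bacterial large subunit protein, stood at 1.10 and 0.31 in the young pools and at -0.86 and -0.18 in the aged pools. Its difference was -1.23 ± 0.47, but its probe sets ran from -2.78 to 0.82.

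The promoters of some of these genes are shown because 3 factors known to act on nuclear genes for mitochondrial proteins, NRF1, GABPA and YY1, were themselves measured. The promoter table from RefSeq (GRCm38.p6) holds 250 bases before to 50 bases after each start and had entries for 67 of the 76 genes, 73 promoters in all. In these, 3 motifs were searched on both strands. The 95 bases before the start are given for 5 genes, read 5′ to 3′ on the strand of the gene, with motif letters in capitals. They are 4 large subunit genes with motif letters whose values are given in the text, and Mrps14, which has none of the motifs in the stretch shown.
Mrpl51 (chr6:125192105-125192199, plus strand): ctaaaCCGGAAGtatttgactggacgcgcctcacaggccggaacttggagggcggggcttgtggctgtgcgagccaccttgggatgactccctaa
Mrpl34 (chr8:71464831-71464925, plus strand): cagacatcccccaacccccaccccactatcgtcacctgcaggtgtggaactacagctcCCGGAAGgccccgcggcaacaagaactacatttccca
Mrpl32 (chr13:14613038-14613132, minus strand): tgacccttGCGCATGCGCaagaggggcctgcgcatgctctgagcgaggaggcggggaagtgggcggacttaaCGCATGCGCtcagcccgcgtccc
Mrpl12 (chr11:120484542-120484636, plus strand): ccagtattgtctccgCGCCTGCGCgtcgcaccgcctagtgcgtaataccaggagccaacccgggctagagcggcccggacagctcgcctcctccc
Mrps14 (chr1:160195120-160195214, plus strand): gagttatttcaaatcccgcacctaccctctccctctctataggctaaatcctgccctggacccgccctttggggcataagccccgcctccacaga

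The NRF1 motif was searched as GCGCANGCG, the ETS motif that GABPA binds as CCGGAAG and the YY1 motif as AAGATGGCG. Mrpl51 and Mrpl34 hold the ETS letters in the stretch shown. Mrpl32 holds NRF1 letters at 3 positions, 2 of them overlapping, and Mrpl12 holds them once. Over the 73 promoters, the NRF1 letters were found in 15 (20.5%), against 6.25% of all 32851 promoters in the table and 8.58% of the 21263 of coding genes. The ETS letters were found in 25 (34.2%), against 8.86% of all promoters and 11.6% of coding ones. The YY1 letters were found in 8 (11.0%), against 1.40% of all promoters and 1.83% of coding ones. Of the 67 genes with a promoter, 15 with NRF1 letters had a median difference of -1.0 and the other 52 a median of -0.73. The 25 genes with ETS letters had a median of -0.74 and those without them -0.75. The 8 genes with YY1 letters had a median of -0.33 and those without them -0.78. A letter match is a description and not a binding site, and no binding was measured.

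The factors themselves had unlike values. Nrf1 differed by 0.38 ± 0.42 and Yy1 by -0.12 ± 0.37, both within their error. Their probe sets disagreed, with 4 of Nrf1 from -0.20 to 1.09 and 4 of Yy1 from -1.39 to 0.83. Gabpa, the DNA-binding part of the ETS factor, stood at -0.21 and -0.68 in the young pools and at 1.29 and 0.10 in the aged pools, a difference of 1.14 ± 0.52 (limma, adjusted p = 0.620). Ppargc1a, the coactivator PGC-1alpha that drives mitochondrial biogenesis, stood at 1.44 and 1.27 in the young pools and at -0.92 and -0.80 in the aged pools. Its difference was -2.21 ± 0.36 (limma, adjusted p = 0.150), and the ages were far apart relative to the spread within each. The 5 probe sets of Ppargc1a ran from -3.80 to -0.50, and the 2 of Gabpa differed by 0.25 and 2.03. Myc, a growth regulator, differed the other way, by 2.34 ± 0.66. Ppargc1b and Pprc1, relatives of PGC-1alpha, differed by -0.87 ± 0.48 and -1.06 ± 0.76. Of the 9 regulators listed, 5 were lower, and their median of -0.12 turned to 0.28 without aged pool 2 and 0.02 without young pool 1.

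In the small subunit, the decoding centre and the path of the messenger RNA were described by 5 genes, all 5 of them lower, with a median of -1.19. Without aged pool 2 the median was -0.73. Mrps12, the homologue of the bacterial protein that guards decoding accuracy, stood at 0.90 and 0.49 in the young pools and at -0.49 and -0.64 in the aged pools. The ages did not overlap, and the difference was -1.26 ± 0.38 (limma, adjusted p = 0.383). Mrps7, which binds ribosomal RNA of the head of the subunit, stood at 0.59 and 0.51 in the young pools and at -0.51 and -1.35 in the aged pools, a difference of -1.47 ± 0.44. Again both aged pools were low, aged pool 2 the lower. Mrps2, the homologue of a bacterial protein between head and body, stood at 0.10 and 1.06 in the young pools and at -0.15 and -1.01 in the aged pools, a difference of -1.16 ± 0.53. Mrps24, the counterpart of a bacterial protein at the entry of the messenger RNA, differed by -1.19 ± 0.90, and this rested on aged pool 2 at -2.38. The other 3 pools of Mrps24 lay between -0.23 and 0.50. Mrps5, at the same entry, differed by -0.14 ± 0.41, within its error.

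Other small subunit genes with small p-values were Mrps21, Mrps14, Mrps10, Mrps15 and Mrps17, all homologues of bacterial proteins. Mrps21 stood at 0.37 and 0.90 in the young pools and at -0.61 and -1.22 in the aged pools, a difference of -1.55 ± 0.43 (limma, adjusted p = 0.341). Mrps14 stood at 0.89 and 0.25 in the young pools and at -1.24 and -0.71 in the aged pools, a difference of -1.55 ± 0.43 (limma, adjusted p = 0.344). In both genes the ages were apart. Mrps10 stood at 0.82 and 0.57 in the young pools and at -0.62 and -0.57 in the aged pools, with the aged pools nearly equal and a difference of -1.29 ± 0.36. Mrps15 stood at 0.77 and 0.55 in the young pools and at -0.36 and -1.69 in the aged pools, a difference of -1.68 ± 0.54. Mrps17 stood at 0.27 and 0.94 in the young pools and at -0.86 and -0.27 in the aged pools, a difference of -1.17 ± 0.45. The ages were apart in all 3 genes, with aged pool 2 lowest for Mrps15 and aged pool 1 lowest for Mrps10 and Mrps17. Mrps36, the gene whose protein is now placed in a dehydrogenase complex, had the largest difference of the 76, at -2.44 ± 0.84. Its values were 0.91 and 0.49 in the young pools and -0.49 and -2.99 in the aged pools, and without aged pool 2 the difference was -1.19.

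**Figure D2:**
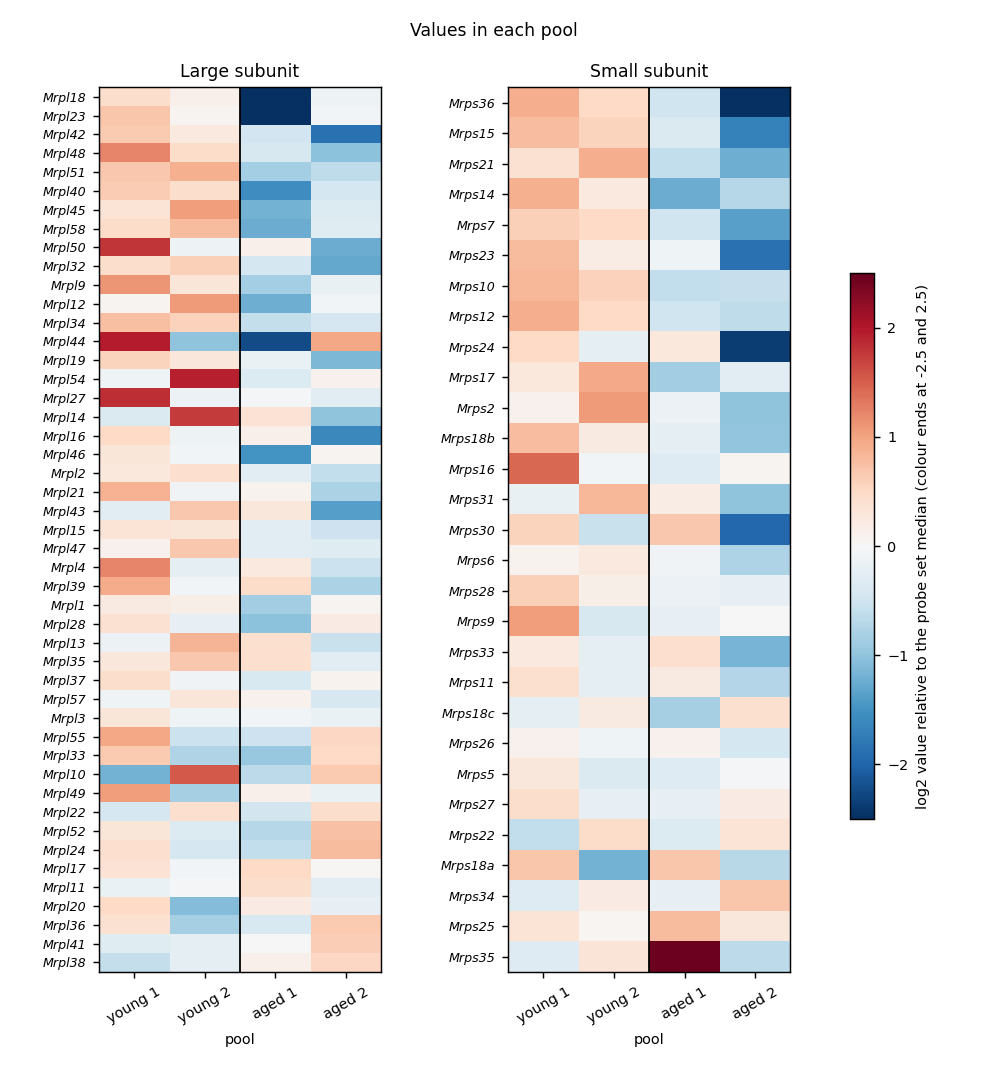
Value of each of the 76 genes in each of the 4 pools, large subunit symbols at left and small subunit symbols at right, ordered by difference. Colour is the log2 value relative to the probe set medians, red above and blue below, with the colour scale ending at -2.5 and 2.5. The upper rows are red in the young pools and blue in the aged pools, while single dark cells (Mrpl18 and Mrpl23 in aged pool 1, Mrps36 and Mrps24 in aged pool 2) mark genes with 1 pool far below the rest.

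In the large subunit, the central protuberance carries contacts to the small subunit and to bound transfer RNA. Of its 7 genes listed, 5 were lower, with a median of -1.0. The median was -0.42 without aged pool 1, -0.63 without young pool 1 and -1.63 without young pool 2. Mrpl48, found in mitochondria alone, stood at 1.21 and 0.46 in the young pools and at -0.41 and -1.03 in the aged pools, a difference of -1.55 ± 0.46 (limma, adjusted p = 0.377). Mrpl40 stood at 0.64 and 0.44 in the young pools and at -1.54 and -0.44 in the aged pools, a difference of -1.53 ± 0.49. Both had non-overlapping ages, with aged pool 2 the lower for Mrpl48 and aged pool 1 the lower for Mrpl40. Mrpl18, related to the bacterial protein that binds the smallest ribosomal RNA, stood at 0.45, 0.13 and -0.13 in all pools but aged pool 1, where it stood at -3.44. Its difference of -2.07 ± 1.06 was -0.42 without that pool. Mrpl27 rested on young pool 1, at 1.85, with the other 3 pools between -0.27 and -0.04. Mrpl46 differed by -0.82 ± 0.60 and Mrpl52 by 0.04 ± 0.59. Mrpl38 was the member of this group that lay above 0 in both aged pools. It stood at -0.60 and -0.25 in the young pools and at 0.12 and 0.52 in the aged pools, a difference of 0.75 ± 0.39 (limma, adjusted p = 0.687).

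Around the tunnel exit, where the new chain leaves the large subunit, 4 of 5 genes were lower, with a median of -1.11. That direction depended on aged pool 1, since the median was 0.44 without it. Mrpl45, which holds the ribosome at the inner membrane, stood at 0.35 and 1.04 in the young pools and at -1.19 and -0.35 in the aged pools. Its difference was -1.46 ± 0.48 (limma, adjusted p = 0.435), with the ages apart. Mrpl23 was like Mrpl18 in that aged pool 1, at -2.89, lay far below the rest. Its difference of -1.86 ± 0.94 was -0.45 without that pool. Mrpl44 was the least stable between pools, at 1.97 and -1.01 in the young pools and at -2.24 and 0.97 in the aged pools. No direction can be read from it, with a difference of -1.11 ± 1.36. Mrpl22 and Mrpl24, which line the exit, differed by -0.01 ± 0.51 and 0.09 ± 0.60.

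The stalk recruits translation factors to the large subunit and was described by 3 genes with unlike values. Mrpl12, whose protein has also been described as a partner of the mitochondrial RNA polymerase, stood at 0.07 and 1.07 in the young pools and at -1.22 and -0.07 in the aged pools. Its difference was -1.22 ± 0.58 (limma, adjusted p = 0.640). Mrpl10, which anchors the stalk, stood at -1.18 and 1.52 in the young pools, a gap wider than its difference of -0.17 ± 0.97. Mrpl11, at the base of the stalk, differed by 0.18 ± 0.42. Its probe sets were divided. One differed by -1.18, while the other 3 lay between 0.32 and 0.89.

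The Mrps18 family has 3 copies in mammals. Mrps18c is counted here among members with a bacterial homologue, and Mrps18a and Mrps18b among those found in mitochondria alone. Mrps18b stood at 0.77 and 0.22 in the young pools and at -0.22 and -0.99 in the aged pools, a difference of -1.09 ± 0.45 (limma, adjusted p = 0.578). Mrps18c differed by -0.21 ± 0.53 and Mrps18a by 0.25 ± 0.78, both within their error. Mrps18a stood at 0.69 in young pool 1 and in aged pool 1 alike, and was low in both pools numbered 2. Mrps30 differed by -0.64 ± 0.93 and aged pool 2, at -1.97, lay far below the rest. The 3 copies were not tested against each other.

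The difference was above 0 for 13 genes, none of them at an unadjusted p under 0.05. Mrps35, a small subunit protein without a bacterial homologue, had the largest positive difference, 0.90 ± 1.01, which rested on aged pool 1 at 2.45. Without that pool it was -0.65. Mrpl41, likewise found in mitochondria alone, stood at -0.30 and -0.23 in the young pools and at 0.01 and 0.61 in the aged pools, a difference of 0.58 ± 0.40. Mrps25 differed by 0.34 ± 0.39, and its 3 probe sets ran from -1.52 to 2.29. Mrps22 (0.08 ± 0.52) and Mrps27 (-0.11 ± 0.42) were among the genes nearest to 0.

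Members with a bacterial homologue and members found in mitochondria alone were counted separately. Of 43 with a homologue, 38 were lower, with a median of -0.75, and 10 were lower at an unadjusted p under 0.05, against 6.19% of all genes. Of 32 found in mitochondria alone, 24 were lower, with a median of -0.62, and 6 reached that p. Without young pool 1 the medians were -0.67 and -0.27, so that the second depended more on that pool. The groups were not tested against each other.

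Probe sets of the same gene often disagreed. Of 42 genes with several probe sets, 16 had all of them lower, 2 had all higher and 24 had them on both sides of 0. In 21 of these 24 the probe sets lay more than 1 apart. Mrps21 shows the usual form, with 1 probe set at -3.31 and the other at 0.21, and so does Mrps10, with -2.78 and 0.19. Mrpl15 had the most, with 8 probe sets from -1.89 to 0.21. Mrpl17, a homologue of a bacterial protein near the tunnel exit, had 3 from -1.15 to 1.57, and Mrps9, in the head of the small subunit, 4 from -2.34 to 0.57. Of all 156 probe sets, 107 were lower, with a median of -0.55, against 47.2% lower and a median of 0.04 over all probe sets with 1 gene. When each gene was instead read by the probe set that varied most over the 4 arrays, 61 of 76 were lower. The large subunit median was then -0.93 and the small subunit median -1.09, the latter more than 1.5 times that from the mean over probe sets. The counts at an unadjusted p under 0.05 became 5 and 5, against 6.07% of all genes in that reading.

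The pools within an age were not alike. Median values over the large subunit were 0.42 and 0.13 in the young pools and -0.38 and -0.27 in the aged pools. Over the small subunit they were 0.44 and 0.22 in the young pools and -0.21 and -0.69 in the aged pools. Young pool 1 was the highest of the 4 in 41 of 76 genes, against 21.3% of all genes. Aged pool 2 was the lowest in 37 and aged pool 1 in 24, against 23.3% and 22.7% of all genes. In the small subunit aged pool 2 was lowest in 17 of 29 genes and aged pool 1 in 5, while the large subunit divided 20 to 19. The SD within an age had a median of 0.68 over large subunit genes and 0.57 over small subunit genes, against 0.41 over all genes.

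**Figure D3:**
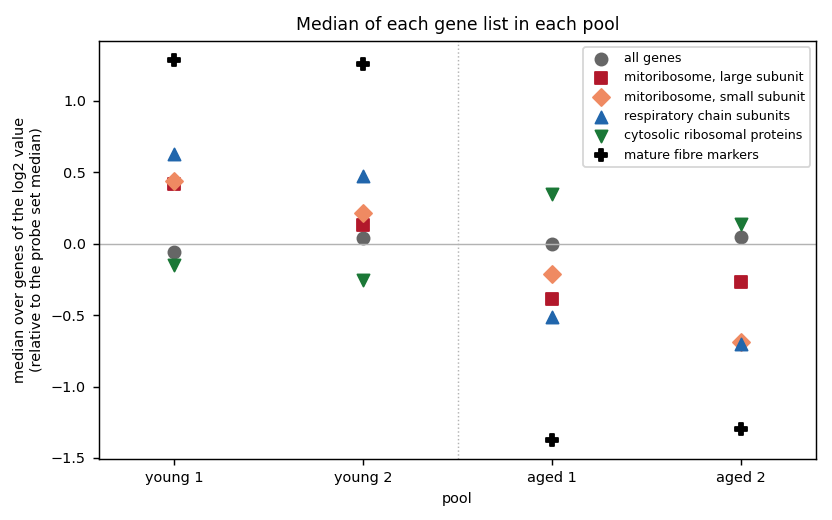
Median log2 value over the genes of each list in each of the 4 pools, with the value relative to the probe set medians on the vertical axis. Each point is 1 pool and 1 list. Large and small subunit medians are above 0 in both young pools and below 0 in both aged pools.

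The difference between pools of the same number was below 0 for both numbers in 40 of the 76 genes, against 25% of all genes. Among pools numbered 1, the median was -0.87 for the large subunit and -0.61 for the small subunit. Among pools numbered 2 it was -0.70 and -0.96. A further 17 genes were lower within number 1 alone and 13 within number 2 alone. In all, 57 of the 76 were lower within number 1, against 8013 of all 18193 genes. Within number 2 the counts were 53 and 8979. In 41 of the 76 genes the difference stayed below 0 whichever pool was left out, against 22.7% of all genes, while 22 of the 63 lower genes changed sign without some pool.

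**Figure D4:**
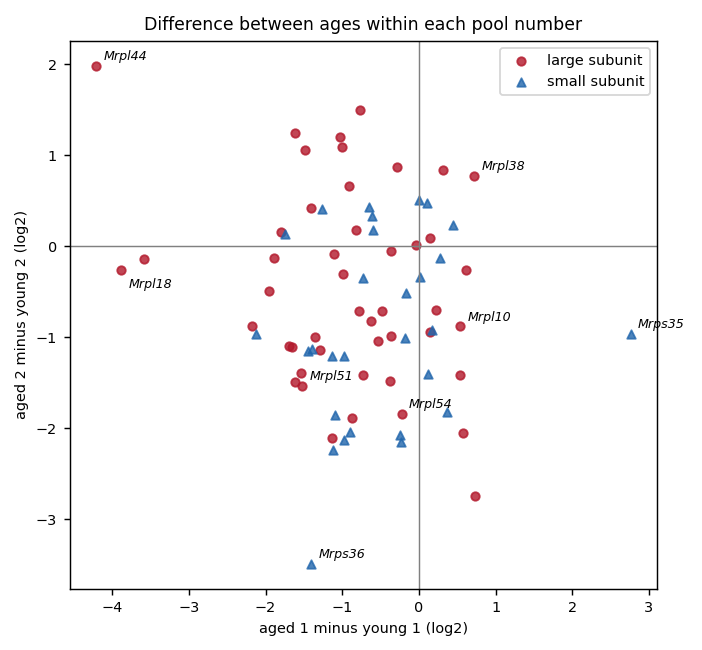
Difference between ages within pools numbered 1 (horizontal axis) and within pools numbered 2 (vertical axis), both log2, 1 point per gene, circles for large and triangles for small subunit symbols. The lower left corner, lower within both numbers, holds 40 of the 76 genes. Mrpl44 and Mrps35 lie far out with opposite signs in the pair of comparisons.

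Genes that serve the mitochondrial ribosome were less uniform. Of the ribosomal proteins whose symbols fall outside the rule, 4 of 5 were measured and 3 of the 4 were lower, with a median of -0.51 that was -0.01 without young pool 2 and -0.03 without aged pool 1. Gadd45gip1, a large subunit protein, differed by -0.99 ± 0.37, and Dap3, a small subunit GTP-binding protein, by -0.47 ± 0.73. Chchd1 differed by -0.54 ± 0.61 and Ptcd3 by 0.71 ± 0.50, both proteins of the small subunit. Of 12 translation factors 9 were lower, with a median of -0.45. Mtif2, the initiation factor that places the first transfer RNA, stood at 0.67 and 1.35 in the young pools and at -0.67 and -1.91 in the aged pools, a difference of -2.30 ± 0.55 (limma, adjusted p = 0.277). Tufm, the elongation factor that brings transfer RNA to the ribosome, differed by -0.94 ± 0.40. Lrpprc, which stabilises mitochondrial messenger RNA, differed by -0.67 ± 0.64 and rested on young pool 1 at 1.54. Its partner Slirp differed by -1.70 ± 0.72. The higher factors with the smallest p were Gfm2, which helps recycle ribosomes, at 0.39 ± 0.37 and Mtfmt, which formylates the first transfer RNA, at 0.16 ± 0.41.

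Assembly factors of the ribosome showed no common direction. Of 22 measured, 13 were lower, with a median of -0.05 that was 0.05 without young pool 1. Mterf4 stood at 1.65 and 0.55 in the young pools and at -0.55 and -1.67 in the aged pools. Its difference was -2.21 ± 0.59 (limma, adjusted p = 0.321). Mtg1, a GTPase that checks the large subunit, differed by -1.05 ± 0.38, and Fastkd2, which binds the large subunit RNA, by -1.78 ± 0.80. Eral1, a chaperone of the small subunit RNA, differed by 0.88 ± 0.42 and Mtg2, another GTPase of the large subunit, by 0.45 ± 0.36. The 4 probe sets of Mtg2 ran from -0.65 to 1.49. Of 16 mitochondrial aminoacyl-tRNA synthetases 6 were lower, with a median of 0.10 whose sign turned without young pool 1 (-0.13) or aged pool 1 (-0.14). Yars2, which attaches tyrosine, differed by -1.16 ± 0.44, Fars2 (phenylalanine) by -1.85 ± 0.92 and Lars2 (leucine) by -0.72 ± 0.36. Nars2 (asparagine) differed by 0.98 ± 0.36 and Tars2 (threonine) by 0.65 ± 0.38. Among 9 genes for upkeep and transcription of mitochondrial DNA 6 were lower, with a median of -0.63, which turned to 0.25 without young pool 2. Tfb2m, a transcription factor of the mitochondrial RNA polymerase, differed by -1.93 ± 0.40 (limma, adjusted p = 0.211), Twnk, the helicase, by -1.63 ± 0.36, Tfam, which packs the DNA, by -0.87 ± 0.42 and Polrmt, the polymerase itself, by -0.63 ± 0.64. The 2 probe sets of Tfam differed by -1.88 and 0.13, and the 2 of Polrmt by -1.48 and 0.22. Polg, the DNA polymerase, differed by 0.64 ± 0.39 and Mterf1a, a terminator of transcription, by 0.39 ± 0.40.

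Some ribosomal genes share a start region with a neighbour on the opposite strand. The starts of Mrps11 and Mrpl46 lie 41 bases apart, and those of Mrps12 and Sars2, the mitochondrial seryl-tRNA synthetase, lie 135 bases apart. The stretches between the starts are shown because each stands before both genes, the first read on the plus strand and the second on the minus strand. Neither stretch holds any of the 3 motifs. Outside the stretches, the searched promoter of Mrps11 has YY1 letters from position -108. That of Mrps12 has ETS letters from position 2, just past its start.
Mrps11 and Mrpl46 (chr7:78783090-78783130): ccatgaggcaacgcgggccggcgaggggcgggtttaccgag
Mrps12 and Sars2 (chr7:28741822-28741956): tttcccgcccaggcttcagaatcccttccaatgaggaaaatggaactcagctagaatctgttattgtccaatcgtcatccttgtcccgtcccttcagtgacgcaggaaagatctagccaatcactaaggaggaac

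In the first pair, Mrps11 differed by -0.34 ± 0.49 and Mrpl46 by -0.82 ± 0.60, and neither parted the ages. In the second pair, Mrps12 differed by -1.26 ± 0.38, as above. Sars2 stood at -0.48 and -0.07 in the young pools and at 0.07 and 0.51 in the aged pools, a difference of 0.57 ± 0.40. The ages did not overlap for either gene of this pair, and the directions were opposite. The difference between them was not tested.

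The proteins made on the mitochondrial ribosome join nuclear-encoded subunits, so these were set beside it. Of 80 nuclear-encoded respiratory chain and ATP synthase subunits, 75 were lower, with a median of -1.35, and 47 were lower at an unadjusted limma p under 0.05, against 6.19% of all genes. For 62 of them both aged pools lay below both young pools, against 16.9% of all genes. Cox8b and Cox7a1, muscle forms of cytochrome oxidase subunits that are also on the fibre list, differed by -4.68 ± 0.44 and -3.80 ± 0.39. Ndufb10, of complex I, differed by -3.11 ± 0.47. On the other side lay Cox6a1 (1.68 ± 0.72) and Ndufb4 (0.46 ± 0.49). Cytosolic ribosomal protein genes, the counterpart outside mitochondria, lay the other way. Among 43 such genes the median was 0.40, and 35 were higher. Rpl12 (3.07 ± 0.54) and Rps10 (1.32 ± 0.36) were the higher genes with the smallest p. Of the 8 lower genes, Rps16 (-0.49 ± 0.52), Rpsa (-0.31 ± 0.37) and Rps2 (-0.28 ± 0.36) had the smallest p, all within or near their error. All lists come from the same 4 arrays, and their differences were not tested against each other.

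**Figure D5:**
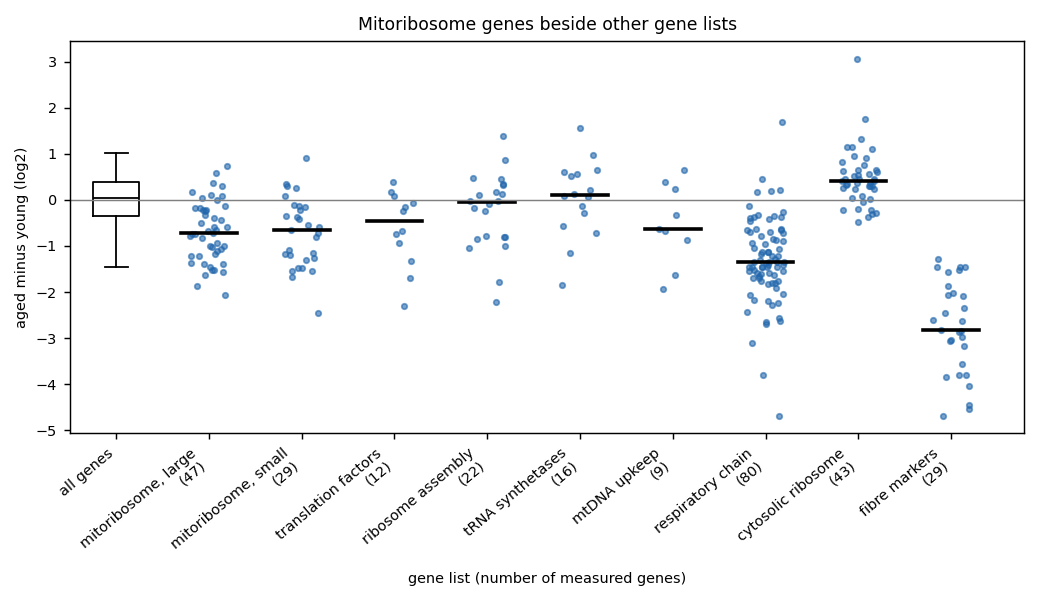
Difference between ages, aged minus young in log2 on the vertical axis, by gene list along the horizontal axis, with 1 point per gene and a bar at each median. All genes are drawn as a box of quartiles and median with whiskers to the percentiles 5 and 95. The medians run from -2.82 for mature fibre markers and -1.35 for respiratory chain subunits through -0.72 and -0.64 for the ribosomal subunits to 0.40 for cytosolic ribosomal proteins.

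Markers of other cells moved with age in the same arrays. Of 29 markers of mature muscle fibres, such as Acta1, Myh4 and Ryr1, 27 were lower at an unadjusted limma p under 0.05, against 6.19% of all genes. Their median value over genes was 1.29 and 1.26 in the young pools and -1.37 and -1.30 in the aged pools. Without the subunits that are also fibre markers, 72 of 77 respiratory chain genes were lower, with a median of -1.34. Of 12 satellite cell markers 7 were higher, with a median of 0.05. Pax7, the defining transcription factor, differed by 2.31 ± 0.36, Myf5 by 2.56 ± 0.63 and Sdc4, the gene of the sort marker, by 1.22 ± 0.53. The 5 lower genes of the list lay near 0, among them Cd34 (-0.29 ± 0.43), Cxcr4 (-0.19 ± 0.36) and Spry1 (-0.26 ± 0.54), as did Itga7 (0.09 ± 0.37) and Heyl (0.10 ± 0.48). Of 8 endothelial markers 7 were lower, with a median of -0.77. Of 12 immune markers 7 were lower, with a median of -0.79, from S100a8 at -2.77 to Cd3g at 4.15, and without aged pool 1 that median was -0.22. Fibro-adipogenic progenitor markers had a median of 0.94 (7 of 8 higher), and pericyte and smooth muscle markers a median of 1.05 (8 of 8 higher). Xist, the RNA of the inactive X chromosome in female cells, stood at -3.48 and -2.67 in the young pools and at 3.21 and 2.97 in the aged pools. Eif2s3y, Kdm5d and Uty on the Y chromosome differed by -0.09 ± 0.44, 0.01 ± 0.49 and 0.52 ± 0.47. The part of these cell types and of sex in the results was not tested.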

How the data were processed

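RNA of 4 pools of sorted satellite cells (2 young, 2 aged) was measured on Affymetrix arrays. The deposited table holds 45101 probe sets on a scale taken as log2, centred by the authors on each probe set's median, which is 0 over the 4 arrays to within 5e-07. The base of the logarithm is not given in the sources used, and neither are the meaning of higher values or the authors' background correction, summary and normalization. A filter on dim probes could not be applied.

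Platform annotation gave 34945 probe sets 1 gene, 932 several and 9160 none, and 64 were controls. For 34741 of the probe sets with 1 gene, the Entrez ID was found in RefSeq and the RefSeq symbol was used, changed or not. Genes were the mean of their probe sets. limma 3.58.1 (R 4.3.3; lmFit and eBayes without trend, two-sided) compared ages over 18193 genes with Benjamini-Hochberg adjustment. Residual degrees of freedom were 2, supplemented by a prior of 3.56. The pipeline was tested on simulated data. Array medians lay between -0.07 and 0.05, and the number of arrays limits the precision.

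The members and gene lists were chosen with earlier results of these data known. In each subunit the genes named were the 8 lower ones with the smallest p, the 2 largest positive, the 3 nearest to 0, up to 4 with opposed probe sets, and the structural groups. Other mitochondrial and ribosomal lists gave the 3 lower and 2 higher genes with the smallest p, and some fixed names, while marker lists were mainly summarised. Mrps11, Mrpl15, Sars2, the markers, Xist and the Y-linked genes were named outside that rule. Alternatives covered the choice of probe set, normalization, moderation, the block and each pool left out. Figures used matplotlib 3.10.9.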

Additional observations from a re-analysis of the deposited data

How the results depend on the processing

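Each choice was changed singly. The subunit medians stayed below 0 in all alternatives run. Read by the probe set with the largest SD, they were -0.93 (large) and -1.09 (small). The counts lower at an unadjusted limma p under 0.05 were then 5 and 5, against 6.07% of all genes. With ordinary least squares the counts were 3 and 2, against 3.71% of all genes lower at that p. With a pool left out, the medians ran from -0.79 to -0.59 (large) and from -0.94 to -0.46 (small). Within pools numbered 2 the small subunit median was -0.96. No gene of the 76 passed an adjusted p of 0.05 by limma in any alternative fitted, ordinary least squares included, although a variance trend called 221 of all genes. Pools of 1 number share only that number. Over genes, the deviations of young pool 1 and aged pool 1 from their age means had a correlation of 0.14. With 2 pools per age, the pools numbered 2 give the same value. With the replicate block the medians were unchanged at -0.72 and -0.64. The counts were then 11 and 10, against 6.7% of all genes lower at that p. Within a single pool number there is no test.

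Of 43 named genes, 26 kept their sign in every alternative run and 17 did not, and the cause was not tested. Among these, within pools numbered 1 the difference was 0.54 for Mrpl10, -1.03 for Mrpl24, -1.01 for Mrpl52 and 0.12 for Mrps30. Within pools numbered 2 it was -0.26 for Mrpl11, 0.016 for Mrpl22, 1.98 for Mrpl44, 0.16 for Mrpl46, 0.18 for Mrps18c, -0.13 for Mrps22, 0.43 for Mrps27, -0.96 for Mrps35, 0.33 for Mrps5 and 0.41 for Mrps9. Mrpl11 was -1.18 by its probe set with the largest SD. Leaving out probe sets whose ID ends in _x_at or _s_at, Mrpl11 was -0.43 and Mrps5 was 0.015. With a pool left out, the difference ran from -1.52 to 1.18 for Mrpl10, from -0.18 to 0.54 for Mrpl11, from -0.13 to 0.36 for Mrpl17, from -0.46 to 0.44 for Mrpl22, from -0.61 to 0.79 for Mrpl24, from -2.72 to 0.50 for Mrpl44 and from -0.69 to 0.77 for Mrpl52. In the small subunit it ran from -0.69 to 1.19 for Mrps18a, from -0.83 to 0.41 for Mrps18c, from -0.46 to 0.61 for Mrps22, from -2.52 to 0.13 for Mrps24, from -0.44 to 0.21 for Mrps27, from -1.97 to 0.68 for Mrps30, from -0.65 to 2.45 for Mrps35, from -0.46 to 0.18 for Mrps5 and from -1.15 to 0.30 for Mrps9. Where a pool was left out, the lone pool of its age was assumed to vary like the others.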

Other observations

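Probe sets that name a mitochondrial ribosomal gene together with another gene were kept out of the comparisons, and 4 of them were on the array. The pair naming Mrpl30 and the predicted gene Gm6238 had unlike values. One stood at 2.24 and 1.19 in the young pools and at -1.19 and -3.01 in the aged pools, a difference of -3.81. The other stayed between -0.18 and 0.21 in all 4 pools. The probe set naming Mrpl53 and Ccdc142 stood at 0.25 and 1.09 in the young pools and at -0.58 and -0.25 in the aged pools, a difference of -1.09. The probe set naming Mrps34 and Nme3 differed by -0.15, while the probe set of Mrps34 alone gave 0.30. Signal from the genes that share these probe sets cannot be told apart.

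The 76 genes lie on 17 chromosomes, with 11 on chromosome 11, 8 on chromosome 17 and 6 each on chromosomes 6 and 7.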
